A study of Mus musculus with 45 samples.

Results

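Mouse embryonic fibroblasts (MEFs) were compared with the cultures that the progenitor route of the study had yielded after 10 days. The comparison used 6 of the 45 RNA-seq libraries, chosen by their titles: 3 libraries of untreated MEFs (day 0) and 3 of cultures given doxycycline (Dox) to switch on MyoD, together with F/R/C, for 10 days. All 6 carried the genotype Tg:Pax7-nGFP/C57BL6;DBA2, a nuclear GFP reporter of Pax7, so the controls shared it. The submitters describe the day 10 cells as muscle fibers with progenitor cells; they were harvested as whole cultures, unsorted, so the values are averages over a mixture. The labels do not spell out F/R/C, and they do not say whether replicates came from separate embryos or cultures. Each p-value therefore measures only the spread between libraries within groups, estimated over all 45 libraries together. For placing a change in time and treatment, 3 libraries of the same route on day 2 and 3 libraries given Dox for 10 days with MyoD alone, both of the same genotype, were set beside the 6.

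MyoD is the basic helix-loop-helix transcription factor that can turn fibroblasts into muscle: it opens muscle gene enhancers, induces myogenin, and drives cells out of the cycle and into fusion. Skeletal muscle keeps a reserve of Pax7-positive stem cells, the satellite cells, in which Notch signalling holds differentiation back. Fibroblasts build the connective tissue around muscle, and their RNA is rich in collagens, fibronectin and other matrix genes. A culture that holds both progenitors and fibers would carry both the stem cell genes and the contractile genes.

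The libraries held 15.64 to 26.73 M estimated reads each (M, 1000000), and 99.53% to 99.75% of them belonged to annotated genes. Of 17325 genes tested, 3293 (19%) were called higher on day 10 and 2732 (15.8%) lower, 6025 (34.8%) in all. A call needed an adjusted p under 0.05 in edgeR's quasi-likelihood test and a log2 fold change of at least 1 in size. Over all genes tested the log2 fold changes had a median of 0.08. The libraries of the groups did not overlap for 30.7% of genes in the higher and 26.9% in the lower direction. MEF replicate 1 stood apart from MEF replicates 2 and 3: it carried low levels of muscle transcripts and more RNA of proliferation genes. The thick filament genes summed to 90.8, 3.90 and 4.06 CPM (counts per 1000000 reads) in MEF replicates 1, 2 and 3, and the mitosis genes to 1139, 441 and 427 CPM. Replicate 3 of both groups had reads of Y-linked genes (158 CPM in MEFs and 162 CPM on day 10) and next to none of Xist. Replicates 1 and 2 had Xist reads and few of Y-linked genes, 3.12 CPM in MEF replicate 1 and under 1 CPM in the others. Below, values of single libraries are in CPM and in the order of replicates 1, 2 and 3, and fold changes are day 10 over MEF on the log2 scale unless stated. Lists are described by how many of their tested members were called, to be read against 19% higher and 15.8% lower among all genes. As the cultures were mixed, fewer cells of a type cannot be told apart from less RNA per cell.

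**Figure D1:**
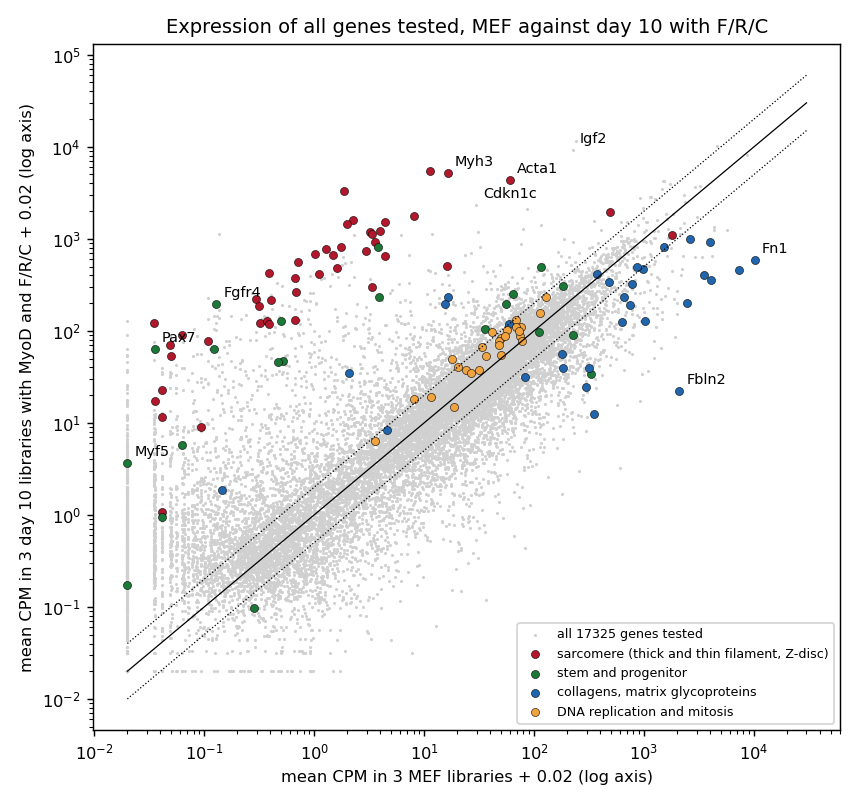
Mean CPM of each gene tested in the 3 MEF libraries (x axis) against the 3 day 10 libraries with MyoD and F/R/C (y axis), both log axes with 0.02 CPM added; the solid line marks equality and the dotted lines a log2 fold change of 1 either way. Sarcomere genes and most stem and progenitor genes lie far above the line, matrix genes such as Fn1 and Fbln2 lie below it, and replication and mitosis genes lie near it.

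Genes of muscle stem and progenitor cells were gained over the route, Pax7 among them. Of 21 members, 15 were called higher and 1 lower, with a median log2 fold change of 5.35 (5.70 with 5 genes of 3 MEF reads or fewer taken at their bound or ratio). Without MEF replicate 1 the median was 4.94, or 5.01 with 7 genes at their bound or ratio. Pax7 stood at 0, 0.0465 and 0 CPM in MEFs and 75.7, 67.9 and 47.1 CPM on day 10. Pax7 is the transcription factor that specifies and maintains satellite cells, and its 3 day 10 libraries all lay far above the 3 MEF libraries, which held 1 Pax7 read between them (a ratio of 3758, counting interval 675 to 148452, adjusted p = 3.3e-11, an interval for counting error only at 95% confidence). Myf5, the myogenic factor of committed satellite cells, had no reads in MEFs and 1.91, 3.41 and 5.51 CPM on day 10 (at least 74.1-fold higher, adjusted p = 3.2e-06, against a floor of 3 reads over the 3 libraries).

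The receptor tyrosine kinase gene Fgfr4, expressed by muscle progenitors of the embryo, rose from 0.264, 0 and 0.0634 CPM to 189, 218 and 180.1 CPM (10.66 on the log2 scale, SE 0.90, adjusted p = 1.3e-10). The 3 day 10 values lay within a narrow band and far from the MEF values. Sox8, a SoxE factor found in satellite cells, rose from 0.308, 0 and 0 to 54.9, 84.6 and 53.2 CPM (9.07 on the log2 scale, SE 1.13, adjusted p = 1.0e-07). Cxcr4, the chemokine receptor that guides migrating muscle precursors, had 0, 0 and 0.127 CPM in MEFs and 5.68, 3.26 and 8.37 CPM on day 10 (a ratio of 181, counting interval 50.2 to 1497, adjusted p = 6.6e-06), and Chodl, a membrane lectin gene, had 0, 0 and 0.0634 CPM in MEFs and 0.835, 1.46 and 0.459 CPM on day 10 (a ratio of 51.9, counting interval 9.32 to 2051, adjusted p = 0.0012). Both stayed below 10 CPM in every library. The MEF reads of Fgfr4 and Sox8 came mostly from MEF replicate 1, and without it Fgfr4 rose by a ratio of 7226 (counting interval 1297 to 285405) and Sox8 by at least 777-fold.

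Members of the Notch pathway in this list were all called higher. The ligand gene Dll1 rose from 0.571, 0.139 and 0.634 to 50.0, 49.9 and 36.3 CPM (6.68 on the log2 scale, SE 0.51, adjusted p = 2.0e-11). Heyl, a Notch-induced repressor of satellite cells, rose from 0.659, 0.139 and 0.634 to 168, 124 and 88.5 CPM (8.06 on the log2 scale, SE 0.88, adjusted p = 1.1e-08). Its relative Hey1 had a log2 fold change of 6.57, the receptor Notch1 of 1.79 and the receptor Notch3 of 1.97. Day 10 replicate 3 was the lowest of its group for each of these 5 genes, and the groups did not overlap. Notch1 had a log2 fold change of 2.69 without MEF replicate 1.

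Among surface and adhesion genes of the list, Cdh15, which encodes M-cadherin, rose from 10.9, 0.372 and 0.127 to 872, 887 and 674 CPM (7.71 on the log2 scale, SE 0.77, adjusted p = 2.2e-09). Megf10, a receptor of satellite cells, had a log2 fold change of 5.91, Itga7, the integrin alpha 7 chain, of 2.12, and Spry1, a feedback inhibitor of FGF signalling, of 1.58. Vcam1, a satellite cell adhesion molecule that fibroblasts also make, was the 1 member called lower. Vcam1 stood at 151, 446 and 394 CPM in MEFs and 63.2, 18.3 and 20.1 CPM on day 10 (-3.29 on the log2 scale, SE 0.72, adjusted p = 3.0e-04), and the day 10 libraries all lay below the MEF libraries. The log2 fold change of Cdh15 was 11.66 without MEF replicate 1, that of Megf10 6.79 without MEF replicate 3, and that of Vcam1 -4.10 without day 10 replicate 1. The members not called were Pax3, Calcr, Sdc3, Sdc4 and Ncam1. Pax3, the sister gene of Pax7 in embryonic muscle precursors, stayed under 1 CPM in all 6 libraries. The quiescence marker Calcr had no reads in MEFs and 0.278, 0.146 and 0.0353 CPM on day 10 (adjusted p = 0.098).

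Of the 12 myogenic transcription factors and cofactors, 9 were called higher and none lower (median log2 fold change 5.97, 5.82 with 3 genes at their bound or ratio, and 5.82 with 4 such genes without MEF replicate 1). Myod1 stood at 8.84, 1.07 and 0.761 CPM in MEFs and 607, 992 and 777 CPM on day 10 (7.77 on the log2 scale, SE 0.76, adjusted p = 1.7e-09). Reads of the induced MyoD copy and of the endogenous gene cannot be told apart in these values, and MEF replicate 1 lay above the other MEF libraries. Myog, which encodes myogenin, the factor of terminal differentiation, stood at 6.90, 0 and 0 CPM in MEFs, with reads in MEF replicate 1 only, and at 1086, 1391 and 861 CPM on day 10 (8.87 on the log2 scale, SE 1.06, adjusted p = 4.5e-08). Myf6, the MyoD relative of late differentiation, had 0, 0 and 0.0634 CPM in MEFs and 19.8, 32.2 and 49.1 CPM on day 10 (a ratio of 2069, counting interval 371 to 81708, adjusted p = 1.7e-07). Leaving out MEF replicate 1 gave Myod1 a log2 fold change of 9.82, and Myog was then at least 13479.8-fold higher.

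Eya2, which encodes a cofactor of homeobox proteins upstream of the MyoD family, had 0.0440, 0 and 0 CPM in MEFs and 13.3, 11.1 and 7.49 CPM on day 10 (a ratio of 628, counting interval 113 to 24801, adjusted p = 1.3e-05). Eya4 had a log2 fold change of 5.43 and Six4 of 1.45. Eya1 was not called (log2 fold change -0.16, adjusted p = 0.6). Of the MEF2 factors, partners of MyoD on muscle promoters, Mef2c rose from 13.1, 3.21 and 5.64 to 465, 702 and 823 CPM (6.50 on the log2 scale, SE 0.84, adjusted p = 1.9e-07), and Mef2d (log2 fold change 0.61, adjusted p = 0.051) was not called. Mef2a was not called either (log2 fold change 0.80, adjusted p = 0.035) but was called higher without MEF replicate 3. The log2 fold changes of Eya4 and Mef2c without MEF replicate 1 were 6.12 and 7.32.

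**Figure D2:**
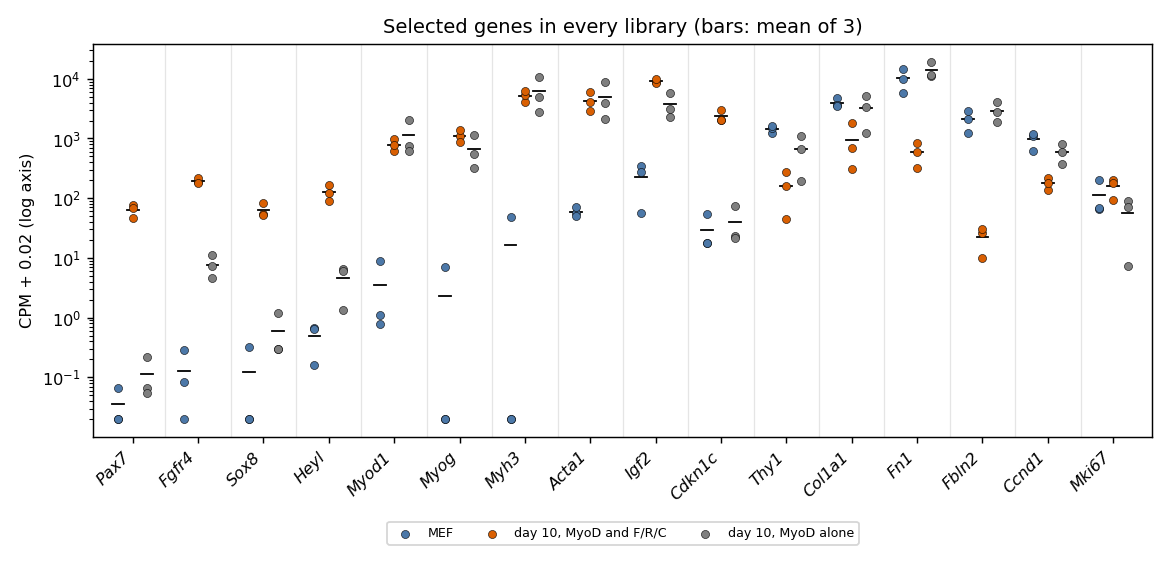
CPM of 16 genes in every MEF, day 10 MyoD and F/R/C, and day 10 MyoD-alone library (log axis, 0.02 CPM added; horizontal bars are means of 3). Pax7, Fgfr4, Sox8 and Heyl are highest in the F/R/C libraries, Myh3 and Acta1 are high in both day 10 groups, and Fn1 and Fbln2 are lowest in the F/R/C libraries.

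The contractile apparatus was gained almost whole. All of the 14 thick filament genes and the 15 titin, Z-disc and M-band genes were called higher, as were 15 of 16 thin filament genes. The median log2 fold changes were 9.31, 9.05 and 8.35. With genes of 3 reads or fewer in MEFs at their bound or ratio, they were 9.46 (4 such thick filament genes), 9.05 (4 such genes) and 8.35 (none). MEF replicate 1 held low levels of these transcripts, and without it the medians on this scale were 11.92 (12 such genes), 10.54 (10) and 10.58 (6).

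Myosin heavy chains are the motor proteins of the thick filament, with embryonic, perinatal and adult forms. The embryonic gene Myh3 stood at 49.2, 0 and 0 CPM in MEFs and rose to 4116, 5271 and 6263 CPM on day 10 (8.30 on the log2 scale, SE 1.34, adjusted p = 5.5e-06). The perinatal gene Myh8 rose from 5.49, 0.0465 and 0 to 1919, 3206 and 4781 CPM (10.75 on the log2 scale, SE 1.36, adjusted p = 1.2e-07). Myh1, an adult fast gene, rose from 3.65, 0.139 and 0 to 875, 816 and 606 CPM (9.17 on the log2 scale, SE 1.22, adjusted p = 2.9e-07). In TPM, which allows for transcript length, day 10 cultures held 1624 ± 300.3 of Myh3, 1012 ± 427 of Myh8 and 244 ± 48.5 of Myh1 (SD, n = 3), so both developmental genes had higher means than the adult one. These genes are near-identical neighbours, and the split of reads between them is uncertain. Day 10 replicate 3 was the highest library for Myh3 and Myh8 and the lowest for Myh1. The light chain genes Myl1, Myl4 and Mylpf had log2 fold changes of 9.45, 8.44 and 8.24. Without MEF replicate 1, Myh3 was at least 65370.3-fold and Myl1 at least 20253-fold higher, Myh8 had a ratio of 125732 (counting interval 22566 to 4966160.0) and Myh1 a ratio of 9396 (counting interval 3215 to 45562). On the log2 scale Myl4 and Mylpf then rose by 9.04 and 10.90.

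The skeletal alpha-actin gene Acta1 was at 56.6, 50.3 and 72.5 CPM in MEFs and 2882, 4041 and 6058 CPM on day 10 (6.18 on the log2 scale, SE 0.83, adjusted p = 3.2e-07). The cardiac alpha-actin gene Actc1, which embryonic skeletal muscle also uses, was at 33.6, 0 and 0.127 CPM in MEFs and 4474, 6198 and 5719 CPM on day 10 (8.91 on the log2 scale, SE 1.27, adjusted p = 8.5e-07). The actins are near-identical, so their split is uncertain too. The troponin genes of the calcium switch moved the same way: the log2 fold changes were 8.82 for Tnnt1, 8.51 for Tnni1 and 7.99 for Tnnc1. Tpm1, a tropomyosin gene that fibroblasts use as well, was the 1 thin filament gene not called (-0.72 on the log2 scale, SE 0.23, adjusted p = 0.0095), while Tpm2 rose (log2 fold change 2.01). The fold change of Tpm1 stayed under the minimum for a call. Ttn, the giant spring of the sarcomere, rose from 9.93, 0.0465 and 0.0634 to 843, 1314 and 1262 CPM (8.38 on the log2 scale, SE 1.09, adjusted p = 1.9e-07). Des, the muscle intermediate filament gene, rose from 13.2, 8.78 and 2.22 to 1473, 1474 and 2303 CPM (7.75 on the log2 scale, SE 0.58, adjusted p = 2.0e-11). Actc1 had a ratio of 101241 (counting interval 28026 to 835981) and Ttn a ratio of 21144 (counting interval 5853 to 174594) when MEF replicate 1 was left out. The log2 fold changes of Tnnt1, Tnni1, Tnnc1 and Des were then 12.13, 13.12, 9.01 and 8.38.

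Excitation-contraction coupling turns an action potential into calcium release, and 15 of its 16 genes were called higher (median log2 fold change 8.07, and 9.72 without MEF replicate 1, with 7 genes at their bound or ratio). The release channel gene Ryr1 rose from 5.41, 0.232 and 0.0634 to 458, 629 and 571 CPM (8.13 on the log2 scale, SE 0.89, adjusted p = 9.7e-09). The voltage sensor gene Cacna1s had a log2 fold change of 9.83, the calcium pump gene Atp2a1 of 9.30 and the calcium store gene Casq1 of 11.11. Scn4a, the muscle sodium channel gene, had no reads in MEFs and 51.8, 71.3 and 150.1 CPM on day 10 (at least 1898-fold higher, adjusted p = 1.2e-08). Clcn1, the chloride channel gene of adult fibers, was not called and stood at 0.755, 1.41 and 1.20 CPM on day 10 (adjusted p = 0.55). Without MEF replicate 1, Ryr1 had a log2 fold change of 11.81 and Atp2a1 a ratio of 55324 (counting interval 9929.6 to 2185200.0), while Cacna1s was at least 3183-fold and Casq1 at least 3005-fold higher.

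Genes of the neuromuscular synapse, which clusters acetylcholine receptors under the nerve ending, were called higher in 10 of 11 cases (median log2 fold change 7.12). The receptor alpha subunit gene Chrna1 rose from 6.99, 10.7 and 19.9 to 368, 509 and 389 CPM (5.08 on the log2 scale, SE 0.52, adjusted p = 3.1e-09). The fetal gamma subunit gene Chrng rose from 4.92, 0 and 0 to 329, 413 and 418 CPM (7.81 on the log2 scale, SE 0.84, adjusted p = 8.2e-09). The adult epsilon subunit gene Chrne had no reads in MEFs and 0, 0 and 0.0353 CPM on day 10, which was 1 read in all. Chrnd, the delta subunit gene, and Musk, the kinase gene of synapse assembly, had log2 fold changes of 8.61 and 8.61. With MEF replicate 1 left out, Chrng was at least 4801-fold and Chrnd at least 3257-fold higher, and Musk had a ratio of 5035 (counting interval 904 to 198868).

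The promoters of Chrna1, Chrng and Acta1 are shown because these genes were called higher and carry short sequences that MyoD-family and TEAD factors are known to read. Being picked for this, they show nothing about other genes. The 250 bases before each start were searched on both strands. One motif was the E-box CAGCTG, which reads the same on either strand. A further E-box was CAGGTG, which reads as CACCTG when found on the other strand. The MCAT element was CATTCC, which reads as GGAATG when found on the other strand. Capitals mark the matches, sequences run 5′ to 3′ on the gene's strand, and both sequence and position come from RefSeq, build GRCm38.p6. Chrna1 lies on the minus strand at chr2:73580339-73580588, Chrng on the plus strand at chr1:87205561-87205810 and Acta1 on the minus strand at chr8:123894776-123895025.
Chrna1: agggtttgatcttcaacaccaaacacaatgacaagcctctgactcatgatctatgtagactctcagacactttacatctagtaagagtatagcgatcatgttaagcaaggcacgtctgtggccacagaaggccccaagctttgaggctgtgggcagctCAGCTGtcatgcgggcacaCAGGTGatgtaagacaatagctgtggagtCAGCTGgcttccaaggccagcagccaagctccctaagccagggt
Chrng: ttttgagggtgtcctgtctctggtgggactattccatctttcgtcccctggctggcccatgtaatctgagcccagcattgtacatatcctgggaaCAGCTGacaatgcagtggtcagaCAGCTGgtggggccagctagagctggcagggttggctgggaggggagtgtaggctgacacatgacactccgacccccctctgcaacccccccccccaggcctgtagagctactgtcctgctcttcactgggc
Acta1: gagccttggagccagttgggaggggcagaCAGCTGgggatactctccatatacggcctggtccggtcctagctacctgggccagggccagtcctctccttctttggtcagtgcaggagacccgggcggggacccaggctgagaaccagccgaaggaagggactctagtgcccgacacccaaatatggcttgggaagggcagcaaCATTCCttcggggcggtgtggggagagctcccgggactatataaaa
In Chrna1, CAGCTG began 92 and 44 bases before the start and CAGGTG 73 bases before it. In Chrng, CAGCTG began 155 and 132 bases before the start. In Acta1, CAGCTG began 221 and CATTCC 46 bases before it. Among 27025 genes with a promoter in this table, 14.7% hold CAGCTG, 19.4% CAGGTG and 14.4% CATTCC in a window of this length, so a match is common and is a description only. Of 95 genes called higher in the muscle lists, 63 were in the table, too few to compare the lists with all genes.

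Of the 8 myoblast fusion genes tested, 5 were called higher and 2 lower. Mymk, which encodes the fusogen myomaker, rose from 5.36, 0 and 0 to 401, 590.0 and 581 CPM (8.14 on the log2 scale, SE 1.04, adjusted p = 1.5e-07). Mymx, which encodes its partner myomixer, had 0.132, 0 and 0 CPM in MEFs and 59.0, 94.0 and 72.6 CPM on day 10 (a ratio of 1479.7, counting interval 506 to 7175, adjusted p = 9.5e-12). Mymk was at least 6496-fold higher without MEF replicate 1. Against these stood Myof, the membrane repair gene myoferlin, which fell from 539, 678 and 762 to 136, 106 and 123 CPM (-2.44 on the log2 scale, SE 0.29, adjusted p = 5.3e-08), and Ghr, the growth hormone receptor gene, which fell (log2 fold change -1.83).

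Of 14 genes of muscle energy metabolism, 12 were called higher (median log2 fold change 7.38, 7.48 with 3 genes at their bound or ratio, and 8.40 without MEF replicate 1, then 7.04 with 4 such genes). Pygm, the muscle glycogen phosphorylase, rose from 1.58, 0.511 and 0.571 to 227, 326 and 618 CPM (8.74 on the log2 scale, SE 0.84, adjusted p = 1.1e-09). Pgam2, a glycolytic enzyme of muscle, had a log2 fold change of 7.54 and Cox6a2, the muscle form of a respiratory chain subunit, of 10.24. Day 10 replicate 3 was the highest of its group for all 3 genes. When MEF replicate 1 was left out, the log2 fold changes of Pygm and Pgam2 were 9.56 and 8.54, and Cox6a2 had a ratio of 3320.2 (counting interval 596 to 131139). Pfkm was called (log2 fold change 1.45), but not without day 10 replicate 3. Cox7a1, a subunit of mature muscle, was not called and stayed at 0.676, 1.51 and 2.68 CPM on day 10.

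**Figure D3:**
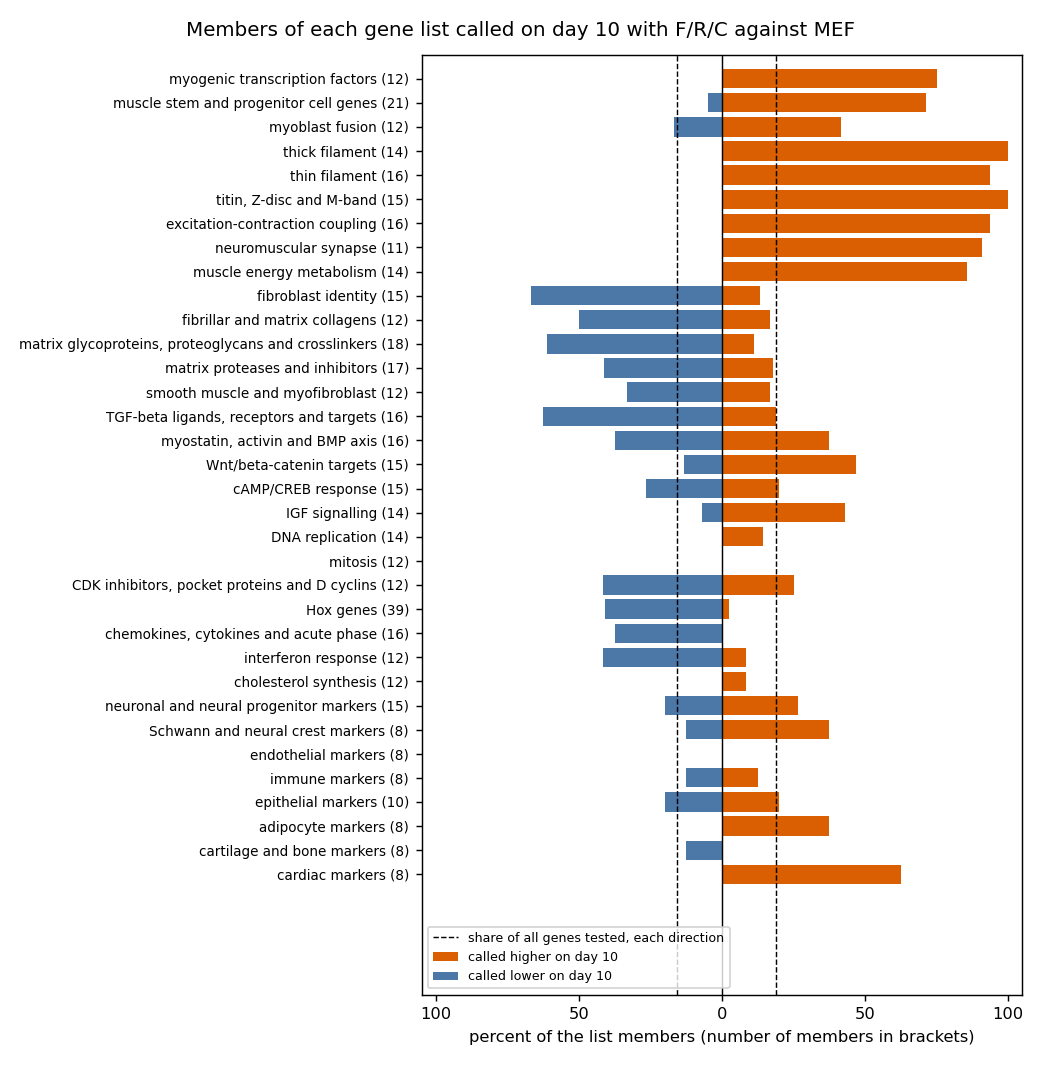
Percent of the members of each of 34 gene lists called higher (right) or lower (left) on day 10 with MyoD and F/R/C against MEFs; list sizes are in brackets and the dashed lines mark 19% and 15.8% of all genes tested. Muscle lists fill the right side up to all 14 thick filament genes, and fibroblast, matrix and TGF-beta lists lean to the left.

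Fibroblast genes were lost in part. Of 14 fibroblast identity genes tested, 10 were called lower and 2 higher (median log2 fold change -2.36, -1.67 without MEF replicate 1). Thy1, a surface glycoprotein gene of fibroblasts, fell from 1236, 1521 and 1635 to 159.8, 44.5 and 274 CPM (-3.20 on the log2 scale, SE 0.79, adjusted p = 0.0011). The names of the authors' tables for the MEF and day 10 libraries include Thy1, but the labels do not say whether the MEFs had been selected on it. S100a4, a calcium-binding protein gene of fibroblasts, fell from 455, 483 and 759.6 to 19.4, 6.09 and 21.5 CPM (-5.17 on the log2 scale, SE 0.73, adjusted p = 7.9e-07). Pdgfra, the PDGF receptor of mesenchymal progenitors, was at 331, 302 and 220.0 CPM in MEFs and 35.5, 6.43 and 68.5 CPM on day 10 (-2.95 on the log2 scale, SE 1.08, adjusted p = 0.022), and the call was lost without day 10 replicate 1 or 2. Without day 10 replicate 3 its log2 fold change was -3.62.

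Day 10 replicate 2 was the lowest library for each of these 3 genes and replicate 3 the highest. Prrx1, a homeobox gene of limb mesenchyme, had a log2 fold change of -1.75 and the collagen receptor gene Ddr2 of -1.51. Pdgfrb was not called (log2 fold change 0.25, adjusted p = 0.79). Tbx15, a T-box gene of limb mesenchyme and muscle, went the other way from 160.0, 75.3 and 94.3 to 168, 235 and 345 CPM (1.18 on the log2 scale, SE 0.39, adjusted p = 0.011). Fap, the fibroblast activation protein gene, was also called higher (log2 fold change 1.89), but not without MEF replicate 2 or 3, and with 3.03 without MEF replicate 1.

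Of 12 collagen genes, 6 were called lower and 2 higher, and only 2 stayed called lower without day 10 replicate 2. Col1a1, the main fibrillar collagen gene, was at 4817, 3647 and 3496 CPM in MEFs and 689.8, 307 and 1792 CPM on day 10 (-2.10 on the log2 scale, SE 0.76, adjusted p = 0.02), and lost its call without MEF replicate 1 or day 10 replicate 1 or 2. Col1a2 had a log2 fold change of -3.10, with the call lost without day 10 replicate 2. The collagen genes Col12a1 and Col8a1 fell by 2.99 and 2.99 on the log2 scale, and were called lower in every leave-one-out fit. Col3a1 (log2 fold change -0.88) and Col6a1 (-0.80) were not called, with 0.16 for Col3a1 without MEF replicate 1 and -1.39 for Col6a1 without day 10 replicate 3. Col15a1, a basement membrane zone collagen, rose from 30.6, 3.02 and 15.8 to 211, 186 and 295 CPM (3.81 on the log2 scale, SE 0.90, adjusted p = 6.6e-04), and Col14a1 rose too (log2 fold change 4.07). Leaving out day 10 replicate 3 gave -2.86 for Col1a1 and -3.87 for Col1a2, and leaving out MEF replicate 1 gave 4.72 for Col15a1.

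Of 18 matrix glycoprotein and crosslinker genes, 11 were called lower and 2 higher (median log2 fold change -2.08). Fn1, fibronectin, fell from 5681, 10019.8 and 14748 to 837, 323 and 590.2 CPM (-4.12 on the log2 scale, SE 0.78, adjusted p = 4.8e-05). Fbln2, a fibulin of elastic fibers, fell from 1225, 2131 and 2906 to 25.8, 10.03 and 31.0 CPM (-6.55 on the log2 scale, SE 1.02, adjusted p = 3.6e-06). MEF replicate 1 was the lowest MEF library for both genes, and still lay above every day 10 library. Thbs1, thrombospondin 1, fell from 4938, 6028 and 10929 to 826, 209 and 346 CPM (-3.99 on the log2 scale, SE 0.82, adjusted p = 1.5e-04), and Tnc, the tenascin of developing and wounded tissue, had a log2 fold change of -3.52. Bgn, the proteoglycan biglycan, was called (log2 fold change -3.63), but not without day 10 replicate 2. Ogn, the small proteoglycan osteoglycin, rose from 18.9, 6.97 and 20.5 to 171, 235 and 182 CPM (3.67 on the log2 scale, SE 0.62, adjusted p = 1.2e-05). Fmod, the related fibromodulin, was called higher from under 1 CPM (log2 fold change 3.89), but not without MEF replicate 1 or 2 or day 10 replicate 1. Without day 10 replicate 1, Thbs1 had a log2 fold change of -4.72 and Fmod of 2.82. Only 1 gene was called higher without MEF replicate 1 or 2 or day 10 replicate 1. Dcn, decorin, was not called (adjusted p = 0.15).

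Of 17 matrix proteases and inhibitors, 7 were called lower and 3 higher. Plau, urokinase, fell from 224, 1065 and 1077 to 120.4, 56.8 and 93.0 CPM (-3.13 on the log2 scale, SE 0.63, adjusted p = 1.1e-04). The inhibitor genes Timp2 and Timp1 had log2 fold changes of -2.88 and -3.31, and the membrane protease gene Mmp14 of -2.54. Mmp9, a gelatinase, rose from 0.4396, 0.325 and 0.254 to 66.8, 3.94 and 41.1 CPM (6.74 on the log2 scale, SE 1.21, adjusted p = 2.6e-05), with day 10 replicate 2 well below the other 2. The versicanases Adamts5 and Adamts15 also rose (log2 fold changes 2.31 and 3.16, the latter 5.01 without MEF replicate 1). Mmp9 had 6.01 and 7.37 without day 10 replicates 1 and 2.

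Of 12 smooth muscle and myofibroblast genes, 4 were called lower and 2 higher, the latter being Des and Smtn (log2 fold change 1.32). Tagln, an actin-binding protein gene of smooth muscle and myofibroblasts, fell from 713, 1566 and 1650.0 to 244, 106 and 110.1 CPM (-3.09 on the log2 scale, SE 0.75, adjusted p = 8.5e-04). Acta2, the smooth muscle actin gene, was at 1672, 2312 and 2386 CPM in MEFs and 1379.9, 1187 and 809 CPM on day 10 and was not called (-0.92 on the log2 scale, SE 0.54, adjusted p = 0.15); it shares near-identical sequence with Acta1 and Actc1. Ccn2, a matricellular gene induced by TGF-beta, was called lower (log2 fold change -2.21), but not without MEF replicate 2 or 3 or day 10 replicate 2 or 3. Its log2 fold change was -1.57 without MEF replicate 3 and -2.90 without day 10 replicate 1.

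Of 16 genes of the TGF-beta axis, 10 were called lower and 3 higher, with opposite moves among ligands and receptors. Tgfb2, a ligand gene, rose from 17.8, 3.95 and 9.57 to 130.4, 80.1 and 94.7 CPM (3.28 on the log2 scale, SE 0.61, adjusted p = 4.3e-05), and so did Tgfbr1, the type I receptor gene (1.95 on the log2 scale, SE 0.25, adjusted p = 1.1e-07). The log2 fold change of Tgfb2 was 4.02 without MEF replicate 1. Tgfbr3, the co-receptor betaglycan, and Ltbp1, which stores latent ligand in the matrix, fell (log2 fold changes -2.70 and -3.16). Tgfbr2 was called lower (log2 fold change -1.5), but not without day 10 replicate 2. Tgfb3 was called higher (log2 fold change 1.09), but not without MEF replicate 2 or 3 or day 10 replicate 1 or 3. The target gene Ccn2 is given above.

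The myostatin, activin and BMP axis split evenly, with 6 of 16 genes called higher and 6 lower, and only 2 lower without day 10 replicate 2. Mstn, the muscle-made brake on muscle growth, rose from 3.52, 0.0465 and 0.0634 to 340.3, 419 and 359 CPM (8.19 on the log2 scale, SE 1.18, adjusted p = 9.9e-07), with a ratio of 6887 (counting interval 1906 to 56866) without MEF replicate 1. Its receptor gene Acvr2a rose (log2 fold change 1.74). Fst, follistatin, which binds myostatin and activins, fell from 145, 228 and 275 to 13.1, 3.21 and 22.4 CPM (-4.06 on the log2 scale, SE 0.99, adjusted p = 9.7e-04). The ligand gene and its inhibitor gene therefore moved in opposite directions. The activin chain genes Inhba and Inhbb were called lower (log2 fold changes -2.32 and -2.53), and both lost the call without day 10 replicate 2, Inhba without MEF replicate 3 as well. The BMP antagonist gene Grem1 was called lower (log2 fold change -3.27), but not without MEF replicate 3 or day 10 replicate 2 or 3, and with -3.92 without day 10 replicate 1.

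Of 12 Wnt/beta-catenin target genes tested, 7 were called higher and 2 lower (median log2 fold change 2.17). Lgr5, a receptor of stem cells in several tissues, rose from 1.85, 0.372 and 0.127 to 31.2, 44.5 and 20.4 CPM (5.30 on the log2 scale, SE 0.82, adjusted p = 3.0e-06, and 7.01 without MEF replicate 1). Nkd1, a feedback inhibitor of the pathway, rose from 0.791, 0.650 and 0.254 to 32.95, 40.2 and 52.1 CPM (6.14 on the log2 scale, SE 0.65, adjusted p = 5.3e-09). Tnfrsf19 (log2 fold change 6.97) and Znrf3 (1.72), which encodes a ligase that removes Wnt receptors, rose as well. Apcdd1, a Wnt inhibitor, fell from 179.6, 349 and 328 to 22.1, 11.7 and 16.6 CPM (-4.09 on the log2 scale, SE 0.67, adjusted p = 7.6e-06), and Bambi fell (log2 fold change -2.30). Tcf7 and Notum were not called, Notum being called higher without MEF replicate 3.

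The cAMP/CREB response list was divided, with 3 of 15 called higher and 4 lower, near the shares among all genes. Sik1, a kinase that feeds back on CREB coactivators, rose from 37.4, 21.7 and 22.6 to 321, 351 and 373 CPM (3.68 on the log2 scale, SE 0.40, adjusted p = 1.1e-08). Ppargc1a, the coactivator of mitochondrial genes, rose (log2 fold change 3.68) and stayed under 10 CPM. The nuclear receptor genes Nr4a1 and Nr4a2 fell (log2 fold changes -2.91 and -3.60), as did the growth factor gene Areg (-2.68). Fos was not called (log2 fold change 0.14).

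Of 14 genes of IGF signalling, 6 were called higher and 1 lower, with gains among abundant genes. Igf2, the fetal growth factor gene made by differentiating muscle, rose from 346, 272 and 56.4 to 8895, 8545 and 9930.0 CPM (5.34 on the log2 scale, SE 0.67, adjusted p = 1.2e-07). H19, the non-coding RNA imprinted next to Igf2, rose from 542, 70.0 and 109 to 12582, 9782 and 12689 CPM (5.60 on the log2 scale, SE 0.65, adjusted p = 2.8e-08). For both genes the 3 day 10 values lay close together and the MEF values were spread. Igfbp5, a binding protein gene induced in differentiating myoblasts, rose from 272, 43.0 and 32.0 to 1699, 1103 and 1409 CPM (3.60 on the log2 scale, SE 0.65, adjusted p = 2.6e-05), and Igfbp2 and Igfbp3 rose (log2 fold changes 5.97 and 2.80). Igfbp6 fell (log2 fold change -2.07), and the receptor genes Igf1r (-0.09) and Igf2r (-0.03) were not called. Leaving out MEF replicate 1, H19 and Igfbp5 had log2 fold changes of 7.12 and 5.32.

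Few proliferation genes were called between the fibroblasts and the day 10 cultures. None of 12 mitosis genes was called and 2 of 14 replication genes were called higher, with median log2 fold changes of 0.54 and 0.72 (1.25 and 1.28 without MEF replicate 1). Mki67, expressed by cycling cells, stood at 204, 65.1 and 69.0 CPM in MEFs and 203, 178 and 92.9 CPM on day 10 (0.48 on the log2 scale, SE 0.59, adjusted p = 0.51), and the groups overlapped. Top2a, a topoisomerase gene of dividing cells, stood at 224, 81.7 and 81.9 CPM in MEFs and 304, 252 and 135 CPM on day 10 (0.83 on the log2 scale, SE 0.59, adjusted p = 0.24). MEF replicate 1 was the highest MEF library for both and day 10 replicate 3 the lowest of its group, and the counts depended on both. The log2 fold changes of Mki67 and Top2a without MEF replicate 1 were 1.34 and 1.60. Without MEF replicate 1, 9 replication and 2 mitosis genes were called higher, and without day 10 replicate 3 the counts were 9 and 1. The licensing factor gene Cdt1 was called with all libraries (log2 fold change 1.45); so was Mcm3 (1.22, and 1.91 without MEF replicate 1), but not without MEF replicate 2 or 3 or day 10 replicate 1 or 2. Leaving out any 1 of these 4 libraries left 1 replication gene called.

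The list of CDK inhibitors, pocket proteins and D cyclins held calls in both directions. Cdkn1c, which encodes the CDK inhibitor p57 and is imprinted, rose from 54.1, 18.0 and 17.6 to 2025, 2946 and 2057 CPM (6.29 on the log2 scale, SE 0.99, adjusted p = 3.9e-06, and 7.14 without MEF replicate 1). Rb1, the retinoblastoma gene, rose from 24.3, 27.3 and 34.7 to 141, 203 and 172 CPM (2.58 on the log2 scale, SE 0.35, adjusted p = 4.3e-07), and Ccnd3, the D cyclin of differentiating muscle, from 207, 193 and 157 to 949, 947 and 1085 CPM (2.42 on the log2 scale, SE 0.27, adjusted p = 1.1e-08). The other D cyclins went down: Ccnd1 fell from 616, 1121 and 1198 to 217, 137 and 178 CPM (-2.46 on the log2 scale, SE 0.44, adjusted p = 2.6e-05) and Ccnd2 fell too (log2 fold change -2.88). Cdkn2a, the locus of p16 and p19 that rises as fibroblasts age in culture, fell (log2 fold change -1.72). Cdkn1a, which encodes p21, was not called (log2 fold change 0.54, adjusted p = 0.13). In all, 3 of 12 were called higher and 5 lower, and 6 higher and 4 lower without MEF replicate 1.

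Hox genes hold positional identity along the body and limb axes. Of 38 tested, 16 were called lower and 1 higher (median log2 fold change -1.51). The count of lower calls was 10 without MEF replicate 1, 10 without day 10 replicate 2 and 10 without day 10 replicate 3. Hoxc6 fell from 25.8, 79.8 and 58.1 to 10.6, 14.1 and 11.02 CPM (-2.20 on the log2 scale, SE 0.46, adjusted p = 1.9e-04), and Hoxc8 (-1.91) and Hoxb3 (-2.28) were called lower in every leave-one-out fit, Hoxc8 with -1.21 without MEF replicate 2. Hoxb9 was called lower (-2.12), but not without MEF replicate 2 or day 10 replicate 3. Hoxd13, the most posterior gene of its cluster, was at 85.6, 8.55 and 7.04 CPM in MEFs and 1.11, 0.779 and 3.14 CPM on day 10 (-4.31 on the log2 scale, SE 1.12, adjusted p = 0.002). MEF replicate 1 was far above the others, and without it the call was lost and the log2 fold change was -2.13. Without day 10 replicate 3 it was -5.0. Hoxd1 was the 1 gene called higher, at 0.676, 1.07 and 0.953 CPM on day 10 (log2 fold change 2.68).

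Of 15 chemokine, cytokine and acute phase genes tested, none was called higher and 6 were called lower, 3 without day 10 replicate 2. Il1rl1, the receptor of interleukin 33, fell from 1311, 751 and 686 to 13.0, 6.67 and 32.6 CPM (-5.71 on the log2 scale, SE 1.69, adjusted p = 0.0051). Cxcl12, the ligand of Cxcr4 made by stromal cells, fell from 374, 86.3 and 116 to 15.7, 4.19 and 22.3 CPM (-3.77 on the log2 scale, SE 0.97, adjusted p = 0.0015), so the ligand gene and the receptor gene moved in opposite directions. Ptgs2, a prostaglandin synthase, had a log2 fold change of -3.39. Il1rl1 had -6.39 without day 10 replicate 3, Cxcl12 -2.76 without MEF replicate 1, and Ptgs2 -2.63 and -4.11 without MEF replicate 3 and day 10 replicate 1.

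Of 10 interferon response genes tested, 5 were called lower and 1 higher, with 3 lower without MEF replicate 1. Ifit3 fell from 20.6, 43.0 and 12.6 to 0.914, 0.584 and 1.02 CPM (-4.90 on the log2 scale, SE 0.57, adjusted p = 3.0e-08), and Usp18 fell (log2 fold change -3.03). Ifit3 had -4.19 without MEF replicate 2, and Usp18 -2.17 and -3.78 without MEF replicate 1 and day 10 replicate 1. The 1 higher call was lost without MEF replicate 2 or 3. Of 12 cholesterol synthesis genes, Dhcr7 alone was called (log2 fold change 1.24), and 2 genes were called without MEF replicate 3 or day 10 replicate 3.

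The endothelial and immune marker lists summed to low levels in both groups, and the lists of the other cell types held some genes at higher levels. The defining immune genes Ptprc, Adgre1 and Tyrobp, the endothelial genes Pecam1, Tie1 and Cldn5, and the epithelial genes Epcam, Krt5 and Krt14 were each under 1 CPM in all 6 libraries. The summed level over the endothelial list was 4.95 to 10.9 CPM in MEFs and 4.92 to 7.80 CPM on day 10, with none of 6 tested genes called. Over the immune list it was 9.26 to 13.6 and 11.5 to 18.9 CPM, with Itgam higher (log2 fold change 7.0, and 8.44 without MEF replicate 3) and Cd14 lower (-3.09). Without MEF replicate 3, 2 immune genes were called lower, and without day 10 replicate 3, 1 endothelial gene was. Over the epithelial list it was 58.3 to 157 and 23.9 to 53.9 CPM, with Krt7 and Cdh1 higher and Cldn1 and Krt18 lower among 7 tested. The call of Krt18 was lost without MEF replicate 3 or day 10 replicate 2 or 3.

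The adipocyte list summed to 26.8 to 41.9 CPM in MEFs and 189 to 304 CPM on day 10, through Lpl, lipoprotein lipase, which muscle also makes (3.02 on the log2 scale, SE 0.65, adjusted p = 2.4e-04). Of its 6 tested genes 3 were called higher, and 2 without day 10 replicate 2 but 1 without any other 1 of the 6 libraries. The cartilage and bone list summed to 55.4 to 74.2 and 18.4 to 26.1 CPM, and Runx2, the bone master regulator, fell (log2 fold change -3.09), the 1 lower call of that list, which had 2 without MEF replicate 2. The part of such cells in the results was not tested.

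Dbx1 and Lhx3, homeobox genes of spinal interneurons and motor neurons, had no reads in any MEF library. On day 10 Dbx1 stood at 13.3, 18.9 and 17.8 CPM (at least 332-fold higher, adjusted p = 4.5e-04) and Lhx3 at 23.8, 11.4 and 1.17 CPM (at least 234-fold higher, adjusted p = 7.0e-04). Dbx1 was alike in the 3 libraries, whereas Lhx3 ranged from high in replicate 1 to low in replicate 3. Dcx, doublecortin, rose from 0.0879, 0.0929 and 0 to 73.3, 74.8 and 164 CPM (10.51 on the log2 scale, SE 1.18, adjusted p = 1.6e-08), and Map2 rose (log2 fold change 2.46). Among other neuronal genes Gap43 (-4.94) and Syt1 (-2.88) fell, and so did Nefl (-3.29) except without MEF replicate 2 (-2.28). Map2 had 4.19 without MEF replicate 1. Tubb3, a neuronal tubulin gene, was not called (log2 fold change 1.14, adjusted p = 0.076) but was called higher without MEF replicate 1 (1.5) or day 10 replicate 2 (1.43). In all, 4 of 13 tested neuronal genes were called higher (5 without MEF replicate 1) and 3 lower.

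Foxd3, a neural crest factor gene, had no reads in MEFs and 6.40, 14.5 and 12.4 CPM on day 10 (at least 219-fold higher, adjusted p = 6.1e-08), and Erbb3, the neuregulin receptor of Schwann cells and muscle, rose from 1.36, 0.372 and 0.380 to 144, 132 and 114 CPM (7.47 on the log2 scale, SE 0.83, adjusted p = 1.2e-08, and 8.51 without MEF replicate 1). Sox10, the defining factor of Schwann and crest cells, stayed under 1 CPM. Of 5 Schwann and neural crest genes tested, 3 were called higher and 1 lower, the lower one being Mbp (log2 fold change -3.5). Of 8 cardiac markers, 5 were called higher. Myh6, the alpha myosin of the heart, had no reads in MEFs and 17.3, 50.2 and 39.5 CPM on day 10 (at least 699-fold higher, adjusted p = 1.1e-05). Its counts before rounding were not whole, so it shares reads with other genes and its level is uncertain. The heart factor gene Gata4 had no reads in MEFs and 0.795, 0.974 and 1.66 CPM on day 10 (at least 23.5-fold higher, adjusted p = 8.0e-05), and Nkx2-5 had 0.636, 0.243 and 0.212 CPM. The call of Nkx2-5 was lost without any 1 MEF library or without day 10 replicate 1.

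The 12 genes of largest rise by the naming rule had no reads in MEFs. They were ranked with all MEF libraries included. Myh3, Actc1 and Myog, with reads in MEF replicate 1, had larger bounds or ratios without that library, as given above. Frem2, an extracellular matrix protein gene, reached 76.1, 138 and 169 CPM (at least 2578-fold higher, adjusted p = 2.9e-09) and Apobec2, a muscle member of the deaminase family, 33.7, 49.8 and 106 CPM (at least 1319-fold higher, adjusted p = 3.2e-08). The purinergic receptor gene P2rx1 reached 33.3, 54.2 and 70.3 CPM (at least 1066-fold higher, adjusted p = 4.4e-09). Beside Scn4a, the others were at least 937-fold higher for B3galt2, at least 796-fold for Art1, at least 522-fold for Tekt5, at least 553-fold for Gabrd, at least 471-fold for Sln, at least 509-fold for Ppp1r3a, at least 506-fold for Ky and at least 431-fold for Col13a1. Sln encodes sarcolipin, an inhibitor of the calcium pump, and Ky and Ppp1r3a act in muscle Z-discs and glycogen metabolism.

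The 12 genes of largest fall included Cldn1, a tight junction gene, from 25.01, 126 and 97.9 to 0.278, 0.584 and 0.388 CPM (-7.64 on the log2 scale, SE 1.23, adjusted p = 6.6e-06). Nlrc5, which drives MHC class I genes, fell from 11.4, 105.3 and 80.5 to 0.477, 0.292 and 0.918 CPM (-6.83 on the log2 scale, SE 0.81, adjusted p = 4.6e-08). B2m, the shared MHC class I light chain gene, fell as well, from 454, 693 and 685 to 68.4, 44.5 and 90.6 CPM (-3.17 on the log2 scale, SE 0.36, adjusted p = 1.6e-08). For both genes MEF replicate 1 was the lowest MEF library, and no day 10 library reached it. Nlrc5 had -6.23 without MEF replicate 2. The membrane protein gene Dynap fell from 0.571, 18.4 and 19.5 to 0.0795, 0.0487 and 0 CPM. Others of this set were Pbp2, Col4a6, Fgl2, Itgbl1, Apobr, Itih2, Syndig1 and Lipg, with log2 fold changes from -7.30 for Pbp2 to -5.70 for Lipg. Penk, the enkephalin precursor gene, stood at 263, 4.37 and 5.20 CPM in MEFs, was called lower (log2 fold change -6.16) and lost the call without MEF replicate 1 (-1.81).

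The TPM ranking kept to protein-coding genes with whole counts and no overlap between the groups. Among these, the most abundant genes called higher were mitochondrial. The complex IV gene mt-Co1 was at 5240.0 ± 721 TPM in MEFs and 11528 ± 2248 TPM on day 10 (SD, n = 3 each; log2 fold change 1.15), and mt-Co2 at 4873 ± 592 and 13667 ± 1406 TPM (1.47). Under the same conditions, the most abundant genes called lower were Crabp1, S100a11, B2m, S100a10 and Anxa1. Crabp1, a retinoic acid-binding protein gene, was at 1318, 3132 and 1533 CPM in MEFs and 79.2, 40.3 and 333 CPM on day 10, with the call lost without MEF replicate 2 or day 10 replicate 1 or 2.

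The route between the end points was read from the libraries of days 2, 4, 6 and 8. Day 2 against MEF gave 1984 genes higher (11.5%) and 1547 lower (8.93%), and day 10 against day 2 gave 1706 higher (9.85%) and 1070 lower (6.18%). The lower counts leaned on single libraries: 934 without day 2 replicate 2 in the first, and 590 without day 2 replicate 1 or 486 without day 10 replicate 2 in the second. These comparisons share libraries with each other and with the main one. Muscle structure was largely gained by day 2: 11 of 14 thick filament genes were called higher on day 2 against MEF, and 5 on day 10 against day 2 (3 without day 2 replicate 1 or 3 or day 10 replicate 3). Myh3 averaged 5101 ± 1579.8, 13777 ± 2501, 12465 ± 1504, 6721 ± 981 and 5217 ± 1075 CPM on days 2, 4, 6, 8 and 10 (SD, n = 3 each). Its mean was highest on days 4 and 6.

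The stem cell program came later in part. Heyl, at 54.4 ± 17.7 CPM, and Dll1, at 41.6 ± 2.04 CPM, were already up on day 2, and 12 of 21 list members were called higher then. Pax7, Myf5 and Cxcr4 were not called on day 2 and were called higher on day 10 against day 2, together with Fgfr4 and Sox8. Without MEF replicate 3, Cxcr4 was called on day 2 as well. Pax7 had no reads on day 2 and averaged 0.541 ± 0.562, 4.63 ± 4.26, 30.3 ± 0.897 and 63.6 ± 14.8 CPM on days 4, 6, 8 and 10. Fgfr4 averaged 10.2 ± 5.80, 20.05 ± 12.4, 41.8 ± 24.5, 113 ± 35.9 and 196 ± 19.98 CPM on days 2 to 10. For both genes the mean was higher at each later day, and in the series' bulk iMPC cultures Pax7 averaged 61.7 ± 21.1 CPM. Dbx1 and Lhx3 were likewise called on day 10 against day 2 and not on day 2.

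Fibroblast losses were spread over the route. Of 14 fibroblast identity genes, 3 were called lower on day 2 against MEF and 6 on day 10 against day 2. The counts fell to 2 in the first step without any 1 library and to 2 in the second without day 10 replicate 2, 3 without day 2 replicate 1 or 3, and 4 without day 2 replicate 2 or day 10 replicate 3. Fn1 averaged 10149.6 ± 4535 CPM in MEFs and 2151 ± 1168, 1126 ± 879, 1005 ± 795, 927 ± 637 and 583 ± 257 CPM on days 2, 4, 6, 8 and 10, with calls in both steps. Both calls depended on single libraries, the first on MEF replicate 3 and day 2 replicates 2 and 3, the second on day 2 replicates 1 and 2 and day 10 replicates 2 and 3. Without day 2 replicate 1 the second log2 fold change was -1.26, against -1.88 with it. Thy1, Tnc, Thbs1, Ccnd1 and Vcam1 were called lower in the step from day 2 to day 10 and not in the step to day 2. Only Tnc and Ccnd1 kept that call whichever day 2 or day 10 library was left out. Thbs1 moved from -2.45 to -3.18 and Vcam1 from -2.22 to -3.04 without day 10 replicate 1.

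Cholesterol synthesis genes were lower on day 2 and higher again by day 10: 6 of 12 were called lower on day 2 against MEF, and 7 higher on day 10 against day 2. Without day 2 replicate 2 the first count was 3.

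**Figure D4:**
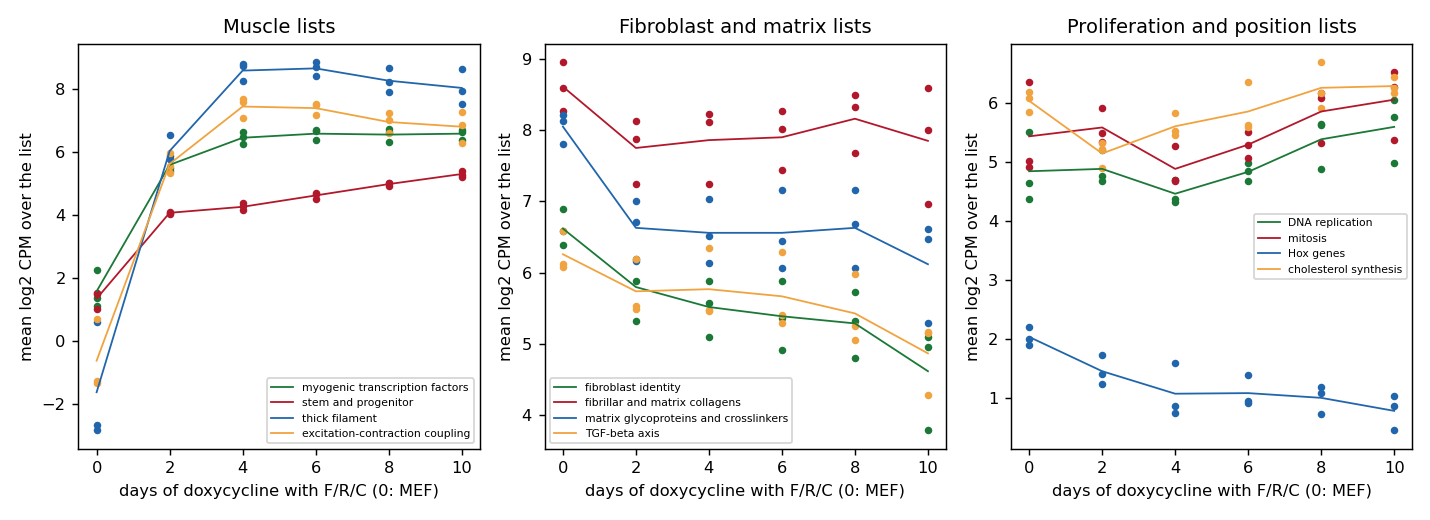
Mean log2 CPM over the tested genes of 12 lists on days 0 (MEF), 2, 4, 6, 8 and 10 of doxycycline with F/R/C; points are single libraries and lines join means of 3. The thick filament list rises to a plateau by day 4, the stem and progenitor list climbs to day 10, and the fibroblast identity list falls throughout.

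How much of the day 10 state goes with F/R/C was asked by comparing it with day 10 of MyoD alone, which gave 1717 genes higher with F/R/C (9.91%) and 2320 lower (13.4%, and 1416 genes without F/R/C replicate 2). Progenitor genes differed between the groups: 10 of 21 were called higher with F/R/C and 2 lower. The lower genes were Chodl (-3.27 on the log2 scale, -2.55 without MyoD-alone replicate 2) and Vcam1 (-2.75, -3.58 without F/R/C replicate 1). Cdh15, Itga7 and Megf10 were not called between the groups. Pax7 stood at 0.0463, 0.198 and 0.0349 CPM in the MyoD-alone libraries (log2 fold change of F/R/C over MyoD alone 9.44, adjusted p = 6.4e-10, and 10.57 without MyoD-alone replicate 2), and Fgfr4 at 4.63, 11.2 and 7.21 CPM (4.67 on the log2 scale, SE 0.62, adjusted p = 1.6e-06). Few sarcomere genes were called between them: none of 16 thin filament genes and 2 higher and 1 lower of 14 thick filament genes, and Myh3 stood at 5006, 10683 and 2741 CPM with MyoD alone (-0.24 on the log2 scale, SE 0.97, adjusted p = 0.87). Without MyoD-alone replicate 2 it had 0.53. The Myh3 libraries of the groups overlapped, and its SE leaves the size of any difference uncertain.

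Proliferation genes differed between these groups. With F/R/C 12 of 14 replication and 8 of 12 mitosis genes were called higher than with MyoD alone, and none lower. The mitosis count was 1 without MyoD-alone replicate 2 or day 10 F/R/C replicate 1 and 5 without F/R/C replicate 2. The replication count stayed between 9 and 12. Mki67 stood at 88.4, 7.38 and 71.8 CPM with MyoD alone (1.5 on the log2 scale, SE 0.61, adjusted p = 0.046), with replicate 2 far below the others. Its call was lost without MyoD-alone replicate 2 (1.10) or F/R/C replicate 1 or 2, and it had 2.12 without MyoD-alone replicate 1.

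The CDK inhibitor gene Cdkn1c was higher with F/R/C, being at 23.1, 73.7 and 21.5 CPM with MyoD alone (5.89 on the log2 scale, SE 0.97, adjusted p = 2.4e-05, and 6.82 without MyoD-alone replicate 2). Mstn was higher too, at 2.87, 6.39 and 1.85 CPM with MyoD alone (6.67 on the log2 scale, SE 1.09, adjusted p = 2.1e-05, and 7.42 without MyoD-alone replicate 2). For both genes all F/R/C libraries lay above all MyoD-alone libraries, but the share of all genes that did so is not given here.

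Matrix glycoprotein and crosslinker genes and TGF-beta genes were lower with F/R/C than with MyoD alone in 11 of 18 and 10 of 16 cases. Of 12 collagen genes 4 were called lower and 2 higher, with 2 lower without MyoD-alone replicate 1. Of 17 matrix proteases and inhibitors 5 were called lower and 2 higher. Among the 18 matrix glycoprotein and crosslinker genes, 3 were called higher with F/R/C. They were Ogn, osteoglycin (2.27 on the log2 scale), and Eln, elastin, and Lum, lumican (2.46 and 3.56), the last pair named after their values were seen. The calls of Eln and Lum were lost without MyoD-alone replicate 1 or 2 or F/R/C replicate 3. Without MyoD-alone replicate 3 they had 3.55 and 6.72, and Lum had 2.02 without F/R/C replicate 3. Fn1 stood at 19212, 11001 and 11586 CPM with MyoD alone (-4.58 on the log2 scale, SE 0.79, adjusted p = 4.4e-05). Fbln2 stood at 4031, 1922 and 2818 CPM (-7.04 on the log2 scale, SE 1.05, adjusted p = 7.3e-06). Of 14 fibroblast identity genes tested, 5 were called lower with F/R/C and 2 higher. The lower count was 1 without F/R/C replicate 2, and 2 without F/R/C replicate 1 or MyoD-alone replicate 1 or 3. S100a4 was lower (-3.46 on the log2 scale) and Fap higher (3.18), both called in every leave-one-out fit. Pdgfra was low in both day 10 groups, at 15.3, 8.57 and 40.1 CPM with MyoD alone, and was not called between them (0.79 on the log2 scale, SE 1.02, adjusted p = 0.57, with 1.71 without MyoD-alone replicate 3 and 0.13 without F/R/C replicate 3). Igf2 stood at 3149, 5680.4 and 2312 CPM with MyoD alone (1.30 on the log2 scale, SE 0.57, adjusted p = 0.067) and H19 at 7559, 14561 and 5097 CPM (0.37 on the log2 scale, SE 0.53, adjusted p = 0.61), and neither was called between the groups, though Igf2 was called higher with F/R/C without MyoD-alone replicate 2 (1.84). H19 had 0.99 without that library. Dbx1 and Lhx3 had no reads with MyoD alone on day 10.

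**Figure D5:**
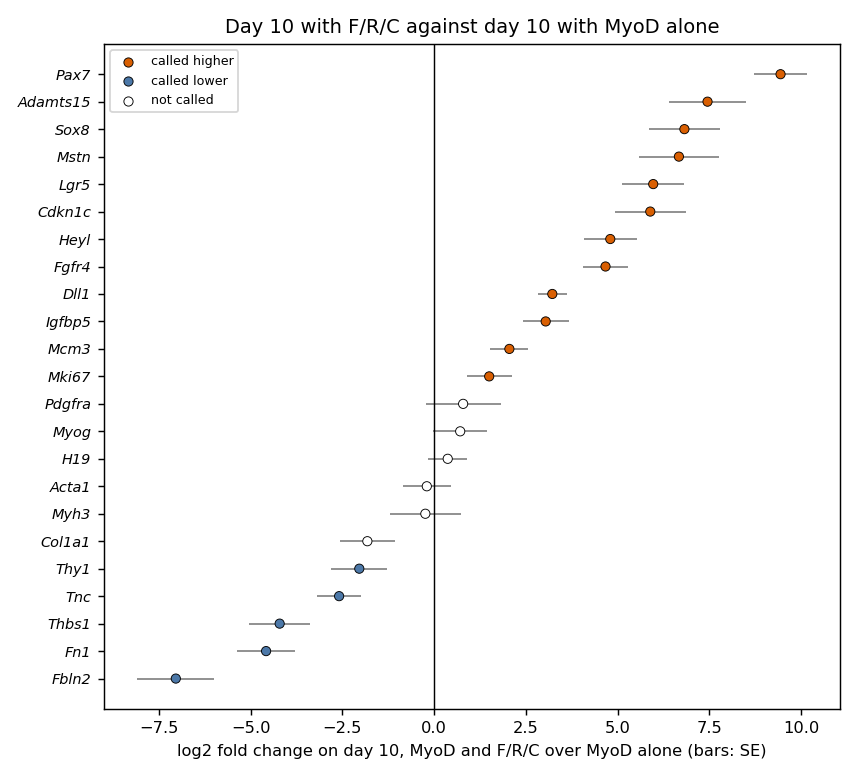
Log2 fold change on day 10 of MyoD with F/R/C over MyoD alone for 23 genes (x axis; bars are SE of edgeR's fit; orange called higher, blue called lower, white not called). Pax7 lies at the top, Myog, Myh3, Acta1 and H19 lie near 0, and Fbln2 lies at the bottom.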

How the data were processed

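Stranded poly-A RNA-seq libraries of whole cultures were used. The authors deposited estimated (expected) counts and TPM per transcript; the submitters' processing notes list bcl2fastq 2.19, Trimmomatic 0.36, kallisto 0.44, edgeR 3.28 and GRCm38.p6. Estimated counts were summed per gene by GENCODE M21 identifiers (739 of 121843 transcripts had no match) and rounded, and the deposited TPM were summed for levels between genes. Of 35675 genes, 25237 had whole sums (within 0.01) in the 6 libraries; the rest share reads with other genes.

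All 45 libraries (15 groups of 3) entered 1 fit by edgeR 4.0.16 (R 4.3.3, limma 3.58.1) with TMM scaling, filterByExpr, no replicate term and 30 residual degrees of freedom. Adjusted p-values are Benjamini-Hochberg values of the two-sided quasi-likelihood test over 17325 genes. In simulated counts with 200 of 17325 genes changed 4-fold, 65% of them were recovered, with 3 false calls. That is a far smaller share of genes than the 34.8% called between day 10 and MEFs, so these rates need not carry over. CPM use TMM-scaled library sizes, and 2 counts were added for log2 CPM. A group without reads was set at a floor of 3 reads in all for "at least" folds, and with 1 to 3 reads a ratio with an exact Poisson interval is given; both cover counting error only.

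The comparison, its members and the 34 gene lists were chosen with earlier results of these data known. Some genes in the lists and counts are not reported here by name. Otherwise named were all members of the transcription factor and stem cell lists; from each other list up to 6 called members of highest CPM, 3 called against its majority and 3 uncalled; the 12 largest changes each way among protein-coding genes of at least 10 CPM with whole counts and no overlap; and the 5 of highest TPM each way. The TPM ranking too kept to protein-coding genes with whole counts and no overlap. Genes set beside a cell type as its defining markers came from the marker lists. Alternatives were median-of-ratios (RLE) scaling, no low-count filter, DESeq2 1.42.0, fewer libraries, a replicate block, no minimum fold change and leaving out each library.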

Additional observations from a re-analysis of the deposited data

How the results depend on the processing

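The count of genes called between day 10 and MEFs stayed within 1.5 times of 6025 under RLE scaling (6038), without the low-count filter (6159), with DESeq2 (6124), in a fit of only the groups compared (5011) and of 33 libraries (6147). Without a minimum fold change it was 9216, 4305 of them lower. That setting also gave 5899 genes for day 2 against MEF (3310 higher, 2589 lower), 4771 for day 10 against day 2 (2481 lower) and 7108 for F/R/C against MyoD alone (3179 higher, 3929 lower), by construction a looser rule. Leaving out 1 library gave 5439 to 6113 genes for day 10 against MEF and 2052 to 2601 lower. The lower counts ranged from 934 to 1528 for day 2 against MEF, 486 to 1053 for day 10 against day 2 and 1416 to 2109 for F/R/C against MyoD alone. Of the 307 named genes, 296 to 307 had a value in each alternative, and none of those had its call reversed. Fold changes of uncalled genes could change sign, as that of Col3a1 did without MEF replicate 1. When 1 library was left out, 284 to 291 named genes kept their call. With DESeq2 299 of 306 kept it, and 280 of 296 in the fit of only the groups compared.

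Replicate numbers are shared between groups in the titles, but nothing says that they mark a shared source. Deviations of same-numbered libraries from their group means correlated by r = -0.00, 0.13 and 0.08 for day 10 against MEF, across 17325 genes, and 2 of 3 libraries correlated best with their own number. The values were -0.07, 0.13 and -0.07 for day 2 against MEF, 0.19, 0.30 and 0.03 for day 10 against day 2, and 0.26, 0.25 and 0.06 for F/R/C against MyoD alone, so in no comparison were all 3 over 0.1. Replicate 3 was the library with the most Y-linked reads in both MEFs and day 10 F/R/C cultures. With the replicate block, 6427 genes were called in the fit of 33 libraries and 4917 in the fit of only the groups compared. The same 2 fits with the block gave 4220 and 2740 genes for day 2 against MEF, 3628 and 2569 for day 10 against day 2, and 4665 and 2942 for F/R/C against MyoD alone.

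With 3 libraries a group and 15.64 to 26.73 M reads a library, genes under 1 CPM rest on few reads, and a missed call does not show that levels were equal. MEF replicate 1 held muscle transcripts, so fold changes of muscle genes with all MEF libraries are smaller than without it for the genes named beside it. The labels do not say what that library's cells were beyond untreated MEFs, and the cause was not tested.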
